A study of Homo sapiens with 12 samples.

Results

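The 78 human genes whose symbol is MRPL or MRPS followed by digits, with an optional A, B or C ending, were taken from the 20033 protein-coding genes of the GENCODE annotation (release 44, hg38). Their symbols are those of mitochondrial ribosomal protein genes, the function of each product was not checked, and they lie on 21 chromosomes. K562 cells, a chronic myeloid leukemia line, carried a degradation tag homozygously on endogenous EP400, the scaffold and remodeling ATPase of the TIP60 complex, and were given back either WT EP400 or ΔTRRAP EP400, from which the SANT and HD domains that hold TRRAP were deleted. Each was expressed from the AAVS1 locus in 1 clone, so a difference between the genotypes cannot be told apart from one between the clones, and both lines received 500 nM dTAGV-1 for 24 h to remove the tagged protein. ChIP-seq of H2A.Z, of acetylated H2A.Z (H2A.Zac) and of input was carried out in 2 biological replicates of each line, 12 libraries in total. The comparison asks where the histone variant and its acetylation move when the TRRAP module is detached from TIP60.

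Mitochondria translate a small set of respiratory chain proteins on a ribosome of their own, whose RNAs are encoded in mitochondrial DNA while its proteins are encoded in the nucleus, made in the cytosol and imported. The large subunit joins amino acids and the small subunit reads the mRNA. Some of the proteins descend from the bacterial ribosome and others are found only in mitochondrial ribosomes. The genes are housekeeping genes with active promoters, where H2A.Z typically sits in the nucleosomes on each side of the TSS. TIP60 can both exchange H2A.Z into nucleosomes and acetylate it, and TRRAP is the subunit through which transcription factors recruit the complex.

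For each mark the deposited data hold 3 lists of regions, those lost in ΔTRRAP (higher in WT), those gained (higher in ΔTRRAP) and those unchanged. The value of a region is the log10 likelihood ratio (LR) that MACS2 bdgdiff computed between the lines on merged replicates, at least 3 in a changed region. The LR is not a fold change. The lists give neither read counts nor replicate values, so depth is unknown, no spread between replicates can be given, and no difference between the lines could be tested here. A gene was called gained when a gained region and no lost region of the mark overlapped the window of 1 kb to each side of its TSS, lost in the opposite case, both when it had regions of each kind, and unchanged when all its regions were unchanged. The windows of the 78 genes held 125 of the 63442 H2A.Z regions and 191 of the 94586 H2A.Zac regions.

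The promoters of 5 genes are shown, because the results below turn on them, as the stretch before the TSS that belongs to no exon. The sequences are those of RefSeq on GRCh38.p14, read 5′ to 3′ on the strand of the gene, and capitals mark letters that match one of the motifs searched below. MRPL22, a protein of the peptide exit tunnel of the large subunit, held the strongest gain of H2A.Zac (chr5:154940823-154941072, plus strand), and the capitals are the core letters of an NRF1 site. MRPS18B, of the small subunit, held the next strongest (chr6:30617590-30617839, plus strand). MRPL47 held the strongest gain of H2A.Z, and its stretch is short (chr3:179604650-179604689, minus strand) because the complex I gene NDUFB5 starts 41 bp away on the other strand; its capitals match an ETS site. MRPL46 and MRPS11 start 63 bp apart on opposite strands and share the stretch shown (chr15:88467391-88467452, minus strand). MRPS12, a protein of the decoding center, held the strongest loss of H2A.Zac (chr19:38930764-38930943, plus strand), and its capitals are 1 GC box and 4 CCAAT boxes.
MRPL22: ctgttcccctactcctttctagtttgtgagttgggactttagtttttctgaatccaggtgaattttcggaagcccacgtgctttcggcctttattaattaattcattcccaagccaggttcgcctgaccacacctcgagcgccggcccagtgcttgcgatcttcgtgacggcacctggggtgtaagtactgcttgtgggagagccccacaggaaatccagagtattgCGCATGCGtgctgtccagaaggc
MRPS18B: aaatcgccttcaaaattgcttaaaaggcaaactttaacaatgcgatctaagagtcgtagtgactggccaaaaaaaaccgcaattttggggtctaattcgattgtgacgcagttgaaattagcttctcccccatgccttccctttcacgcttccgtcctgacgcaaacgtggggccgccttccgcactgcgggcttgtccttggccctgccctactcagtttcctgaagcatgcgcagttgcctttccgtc
MRPL47: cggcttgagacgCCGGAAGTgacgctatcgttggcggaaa
MRPL46 and MRPS11: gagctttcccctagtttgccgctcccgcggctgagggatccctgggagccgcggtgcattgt
MRPS12: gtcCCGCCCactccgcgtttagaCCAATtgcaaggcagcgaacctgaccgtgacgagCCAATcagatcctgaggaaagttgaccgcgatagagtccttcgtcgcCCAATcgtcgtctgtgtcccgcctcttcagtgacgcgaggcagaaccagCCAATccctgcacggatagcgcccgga

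In ΔTRRAP cells, acetylated H2A.Z was called gained at most of these promoters, while total H2A.Z was called unchanged at most of them. The unchanged share of H2A.Z was near the background, 72.4% of the members with an H2A.Z region and 67.9% of all such genes. H2A.Zac was gained at 51 of the 78 genes (65.4%; Wilson 95% confidence interval, 54.3 to 75.0%), lost at 7, both gained and lost at 3 (MRPL52, MRPS25 and MRPS6), unchanged at 14 and without a region at 3 (MRPL37, MRPS22 and MRPS23). Among all protein-coding genes 30.4% were called gained and 12.6% lost. Many of those genes have no region of the mark, and among genes with a region the shares were 68.0% gained for the 75 mitochondrial ribosomal protein genes (56.8 to 77.5%) against 48.9%, and 9.33% lost (4.59 to 18.0%) against 20.2%. The shares with and without an opposite-strand TSS within 1 kb are given below. Intervals given here cover counting error over genes only, and genes that share a promoter are not independent.

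For H2A.Z, 18 genes were gained, 2 lost (MRPS30 and MRPS33), 1 both (MRPL19), 55 unchanged and 2 without a region (MRPL37 and MRPS22). Among all protein-coding genes 12.6% were gained and 6.27% lost. Among genes with an H2A.Z region the gained share was 23.7% in the 76 members (15.5 to 34.4%) and 21% in general (2532 of 12033 genes), so the members lay near the background for gains of total H2A.Z. The lost share was 2.63% (0.725 to 9.10%) against 10.4%. When genes with an opposite-strand protein-coding TSS within 1 kb and those with no other were taken apart, as below, each interval included the general lost share.

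**Figure D1:**
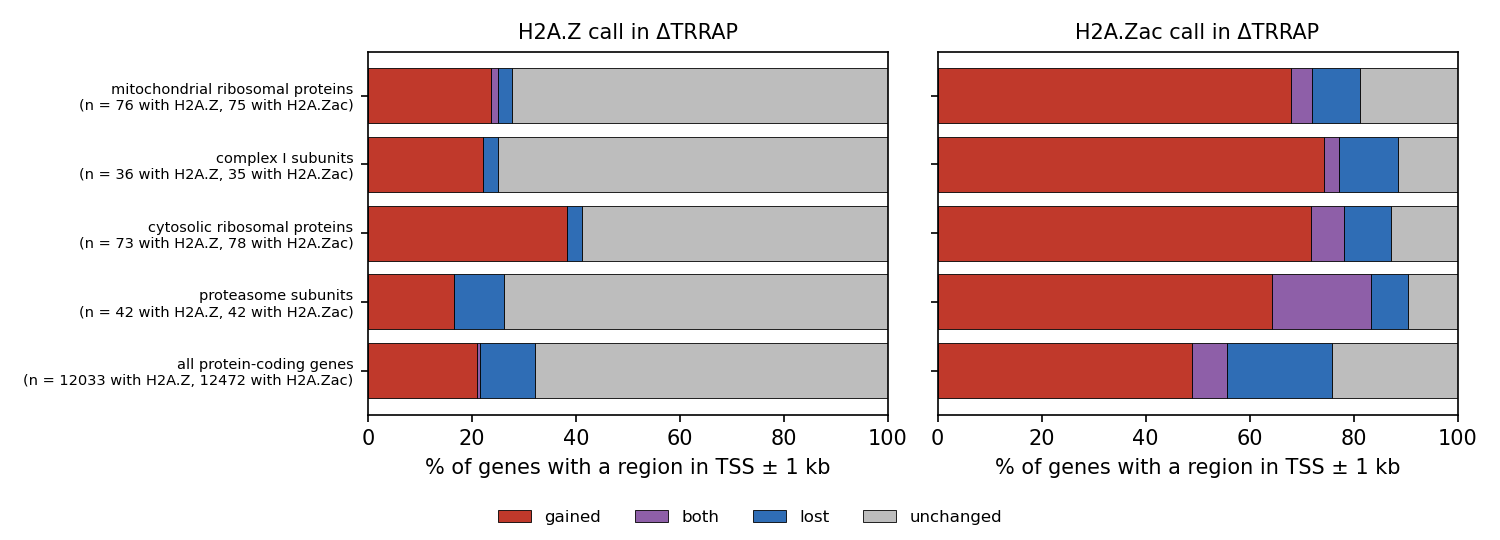
Share of genes with a region within 1 kb of the TSS (x axis, percent) that were called gained, both, lost or unchanged in ΔTRRAP, for H2A.Z (left) and H2A.Zac (right), in mitochondrial ribosomal protein genes, 3 other groups of housekeeping genes and all protein-coding genes. Gained H2A.Zac takes 68.0% of the mitochondrial ribosomal protein genes and 48.9% of all genes, while gained H2A.Z takes 23.7% and 21%.

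Taking both marks of each gene, the most frequent combination was gained H2A.Zac over unchanged H2A.Z, at 34 of the 75 members with regions of both marks (45.3%; 34.6 to 56.6%) and at 32.9% of the 11499 protein-coding genes with regions of both. Both marks were gained at 15 members, 19.2% of the 78, and at 9.15% of all protein-coding genes. Among genes with regions of both marks it was 15 of 75 (12.5 to 30.4%) and 15.9%, so the members lay near the background. Both were unchanged at 11 of the 75 (14.7%, against 20.6%), and H2A.Zac was lost over unchanged H2A.Z at 6 (8%, against 10.7%), within the counting error of the general shares. No member had both marks lost (0 to 4.87% of the 75), a combination found at 4.39% of all protein-coding genes and at 7.64% of those with regions of both. With H2A.Z lost at only 2 members, few could have had both marks lost. Of the 55 members with unchanged H2A.Z, 61.8% had gained H2A.Zac (48.6 to 73.5%), and of the 8172 protein-coding genes with unchanged H2A.Z, 46.3% did. Of the 73 gained H2A.Zac regions in the windows, 57 had at least 25% of their length on unchanged H2A.Z (78.1%; 67.3 to 86.0%), as did 73.5% of those at protein-coding genes in general, and 12 on gained H2A.Z (16.4%, against 19.5%). Both shares were near the general ones.

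The gains were frequent, and few had a high LR. The highest LR of a gained H2A.Zac region had a median of 5.86 over the 54 members with such a region and of 6.40 over the 6946 protein-coding genes with one. It reached 5 in 75.9% of these members and 76.1% of these genes, and 10 in 4 members, 7.41% of the 54, and in 14.8% of the 6946 genes. When only regions with an LR of at least 5 counted as changed, 54.7% of the members with a region were gained and 38.8% of all such genes. With an LR of at least 10, 5.48% of the members with a region were gained and 8.37% of all such genes. The gains also lay beside unchanged regions. Of the 54 members, MRPL22, MRPL47 and MRPL50 alone had no H2A.Zac region of another class in the window, and 65 of the 73 gained H2A.Zac regions shared at least 1 base with an unchanged one (89.0%; 79.8 to 94.3%), as did 76.0% of those at protein-coding genes in general. When each gene took the class covering most base pairs of its window, 15 of the 75 members with a region were gained, close to the 21.2% of all protein-coding genes with a region. The larger share of gained members was therefore seen when any gained region counted, also with an LR of at least 5. With regions of at least 500 bp the shares were 45.3% of the members with a region (34 of 75; 34.6 to 56.6%) and 37.2% of all such genes. That interval includes the general share. At the TSS base the shares were near each other, 32.4% of the members with a region there and 28.2% of such genes. The larger share was not seen with an LR of at least 10 or by the class covering most base pairs.

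**Figure D2:**
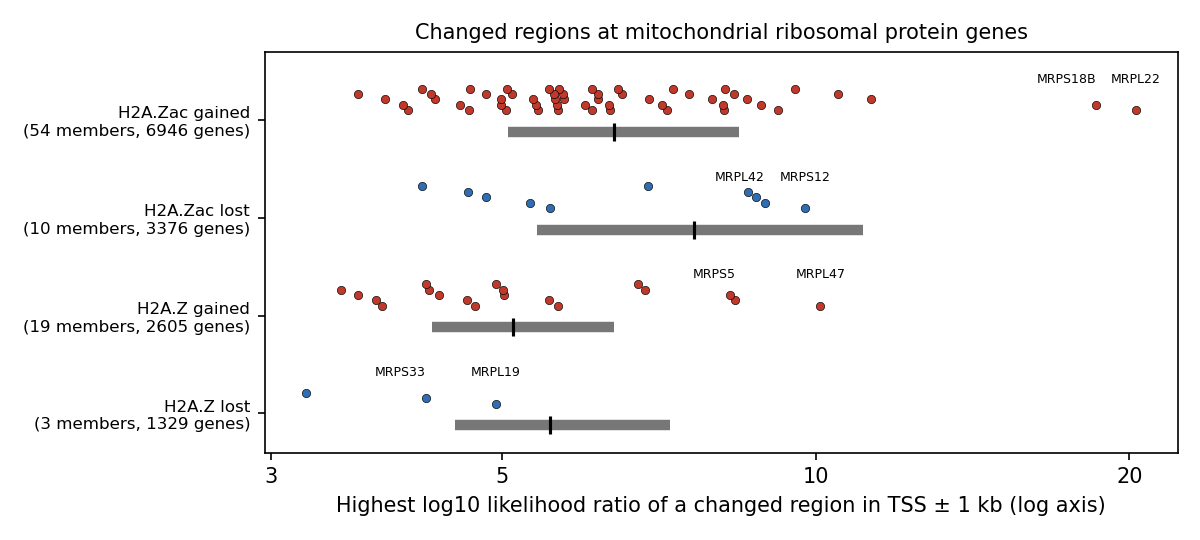
Highest log10 likelihood ratio of a changed region in the window (x axis, log scale) for each mitochondrial ribosomal protein gene (points, spread vertically for display), by mark and direction, with the interquartile range (gray bar) and median (tick) of all protein-coding genes with such a region. MRPL22 and MRPS18B stand apart at 20.3 and 18.6 for gained H2A.Zac, and the other members lie mostly around or under the general median of 6.40.

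The strongest gains were in genes of both subunits. At MRPL22, 1 gained H2A.Zac region with an LR of 20.3 ran from 564 bp upstream to 844 bp downstream of the TSS (chr5:154940509-154941917), and 1 gained H2A.Z region with an LR of 8.28 covered nearly the same stretch (chr5:154940517-154941749). Both take in exons 1 and 2 of the canonical transcript, and no unchanged region of either mark was present. Gains also prevailed around this gene. Of the other changed regions in the 5-Mb stretch of the chromosome that holds it, 50 of 55 for H2A.Z (90.9%) and 70 of 86 for H2A.Zac (81.4%) were gained, where gained regions are 41.6% and 50.4% of the changed regions in the whole lists. At MRPS18B, the gained H2A.Zac region with an LR of 18.6 was upstream, from 1218 to 579 bp before the TSS (chr6:30616622-30617261), and a weaker one (LR 3.48) followed it up to 8 bp before the TSS. Its H2A.Z gain was modest, with an LR of 4.25, and an unchanged H2A.Zac region also covered the TSS.

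At MRPL47, another exit tunnel protein, the 2 gained H2A.Z regions lay on either side of the TSS, with an LR of 10.1 downstream (chr3:179603992-179604526) and 5.76 upstream (chr3:179604878-179605554). Across the gap between them, which contains the shared start of MRPL47 and NDUFB5, ran 1 gained H2A.Zac region of 1749 bp with an LR of 9.20 (chr3:179604011-179605759). MRPL48, a large subunit protein, showed the same flanking arrangement in both marks, with H2A.Zac LRs of 11.3 upstream and 7.86 downstream and H2A.Z LRs of 5.02 and 4.37. In contrast to MRPL47, unchanged regions of both marks lay between and around the flanks at MRPL48. At MRPL53, also of the large subunit, 1 gained H2A.Zac region with an LR of 9.56 covered the TSS and touched exons 1, 2 and 3, over a gained H2A.Z region with an LR of 5.54.

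Ranked by the lower of their 2 LRs, the genes with both marks gained were MRPL47 (9.20), MRPL22 (8.28), MRPL18 (6.75), MRPL53 (5.54), MRPL48 (5.02), MRPL13 (4.98), MRPL17 (4.93), MRPS14 (4.35), MRPS18C (4.27) and MRPS18B (4.25), followed by MRPL32, MRPL43, MRPL50, MRPL58 and MRPS27 at 3.50 to 4.22. Of the 15, 11 belong to the large subunit, which provides 51 of the 78 genes. The first 3 lie in stretches of 5 Mb where most other changed H2A.Z regions were gained too, 85.0% at MRPL47, 90.9% at MRPL22 and 78.4% at MRPL18. Over the members, the median of this share was 57.2% for the 18 with gained H2A.Z and 34.1% for the 55 with unchanged H2A.Z, whereas for H2A.Zac it was 51.3% for the 51 gained and 50.8% for the 14 unchanged. The part of the surroundings in the calls was not tested. MRPL18 held gained regions of both marks upstream and downstream of the TSS, with a highest H2A.Z LR of 6.75. MRPL58, a peptidyl-tRNA hydrolase that became a fixed part of the large subunit, held a gained H2A.Z region upstream (LR 3.63) and a gained H2A.Zac region downstream (LR 4.55), so that its gains in the 2 marks did not coincide. MRPL13 had its H2A.Z gain upstream (LR 6.86), and its gained H2A.Zac regions were at 4.98 downstream and 4.13 over the TSS.

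MRPS5 and MRPL30 gained H2A.Z without a change of H2A.Zac. MRPS5, of the small subunit, had 2 gained H2A.Z regions downstream of the TSS, of which the farther one had an LR of 8.37, the second highest H2A.Z gain among the members. MRPL30 had 1 gained H2A.Z region over the TSS with an LR of 5.01. At both, the H2A.Zac region of the window was unchanged, which was the case at 11.1% of the 18 members with gained H2A.Z and at 11.4% of all protein-coding genes with it.

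Losses of H2A.Zac were fewer and lay upstream. The 5 highest LRs of lost regions were those of MRPS12 (9.76), MRPL42 (8.93), MRPS26 (8.77), MRPS17 (8.61) and MRPL15 (6.90). None of the 10 members with a lost region reached 10, against 31.2% of the 3376 protein-coding genes with one. At MRPS12 the lost region spanned 1394 to 531 bp upstream (chr19:38929550-38930413), which is the side of SARS2, the mitochondrial seryl-tRNA synthetase gene that starts 181 bp from it on the other strand, while an unchanged H2A.Zac region covered the MRPS12 TSS. At MRPL42 it spanned 832 to 123 bp upstream (chr12:93466682-93467391) and at MRPS17 813 to 227 bp upstream (chr7:55951064-55951650). Each stopped before the TSS. MRPL34 was the exception, with both its lost regions downstream, at LRs of 4.42 and 5.32, but its canonical transcript starts 13.3 kb from the gene TSS and had only unchanged regions there. Over the members, 3.43 kb of the 4.25 kb of lost H2A.Zac in the windows was upstream, no lost region covered a TSS base, and over all protein-coding genes 40.9% of the lost length was downstream. None of the 11 lost H2A.Zac regions lay on lost H2A.Z by at least 25% of its length (0 to 25.9%), whereas 29.2% of those at protein-coding genes in general did. The member windows held only 3 lost H2A.Z regions in all, so few such overlaps were possible. In the members 9 of the 11 lay on unchanged H2A.Z (81.8%; 52.3 to 94.9%), an interval that includes the general share of 60.5%.

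In several genes the directions differed within the window. Both directions of H2A.Zac were called at 4.0% of the 75 members with a region (1.37 to 11.1%) and at 6.82% of all such genes. For H2A.Z the shares were 1.32% of the 76 members (0.233 to 7.08%) and 0.607%, so the members lay near the background in each mark. MRPL19, a large subunit protein, lost H2A.Z from 968 to 460 bp upstream (LR 4.93) and gained it from 826 to 1076 bp downstream (LR 5.65), where a gained H2A.Zac region with an LR of 10.5 also lay. MRPS30, a large subunit protein despite its name, lost H2A.Z upstream (LR 3.24, near the cutoff) and gained H2A.Zac downstream (LR 5.72). MRPS26 was the reverse case between marks, with H2A.Z gained from 384 to 132 bp upstream (LR 3.83) and H2A.Zac lost just beyond, from 1154 to 479 bp upstream (LR 8.77). These opposite calls therefore concern separate stretches of the promoters. In MRPL52, MRPS25 and MRPS6, H2A.Zac was lost upstream and gained downstream, with LRs of 4.19 and 5.64, of 5.56 and 3.86, and of 4.63 and 6.10. MRPS33 had a lost H2A.Z region 829 to 501 bp upstream (LR 4.22) and unchanged H2A.Zac.

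**Figure D3:**
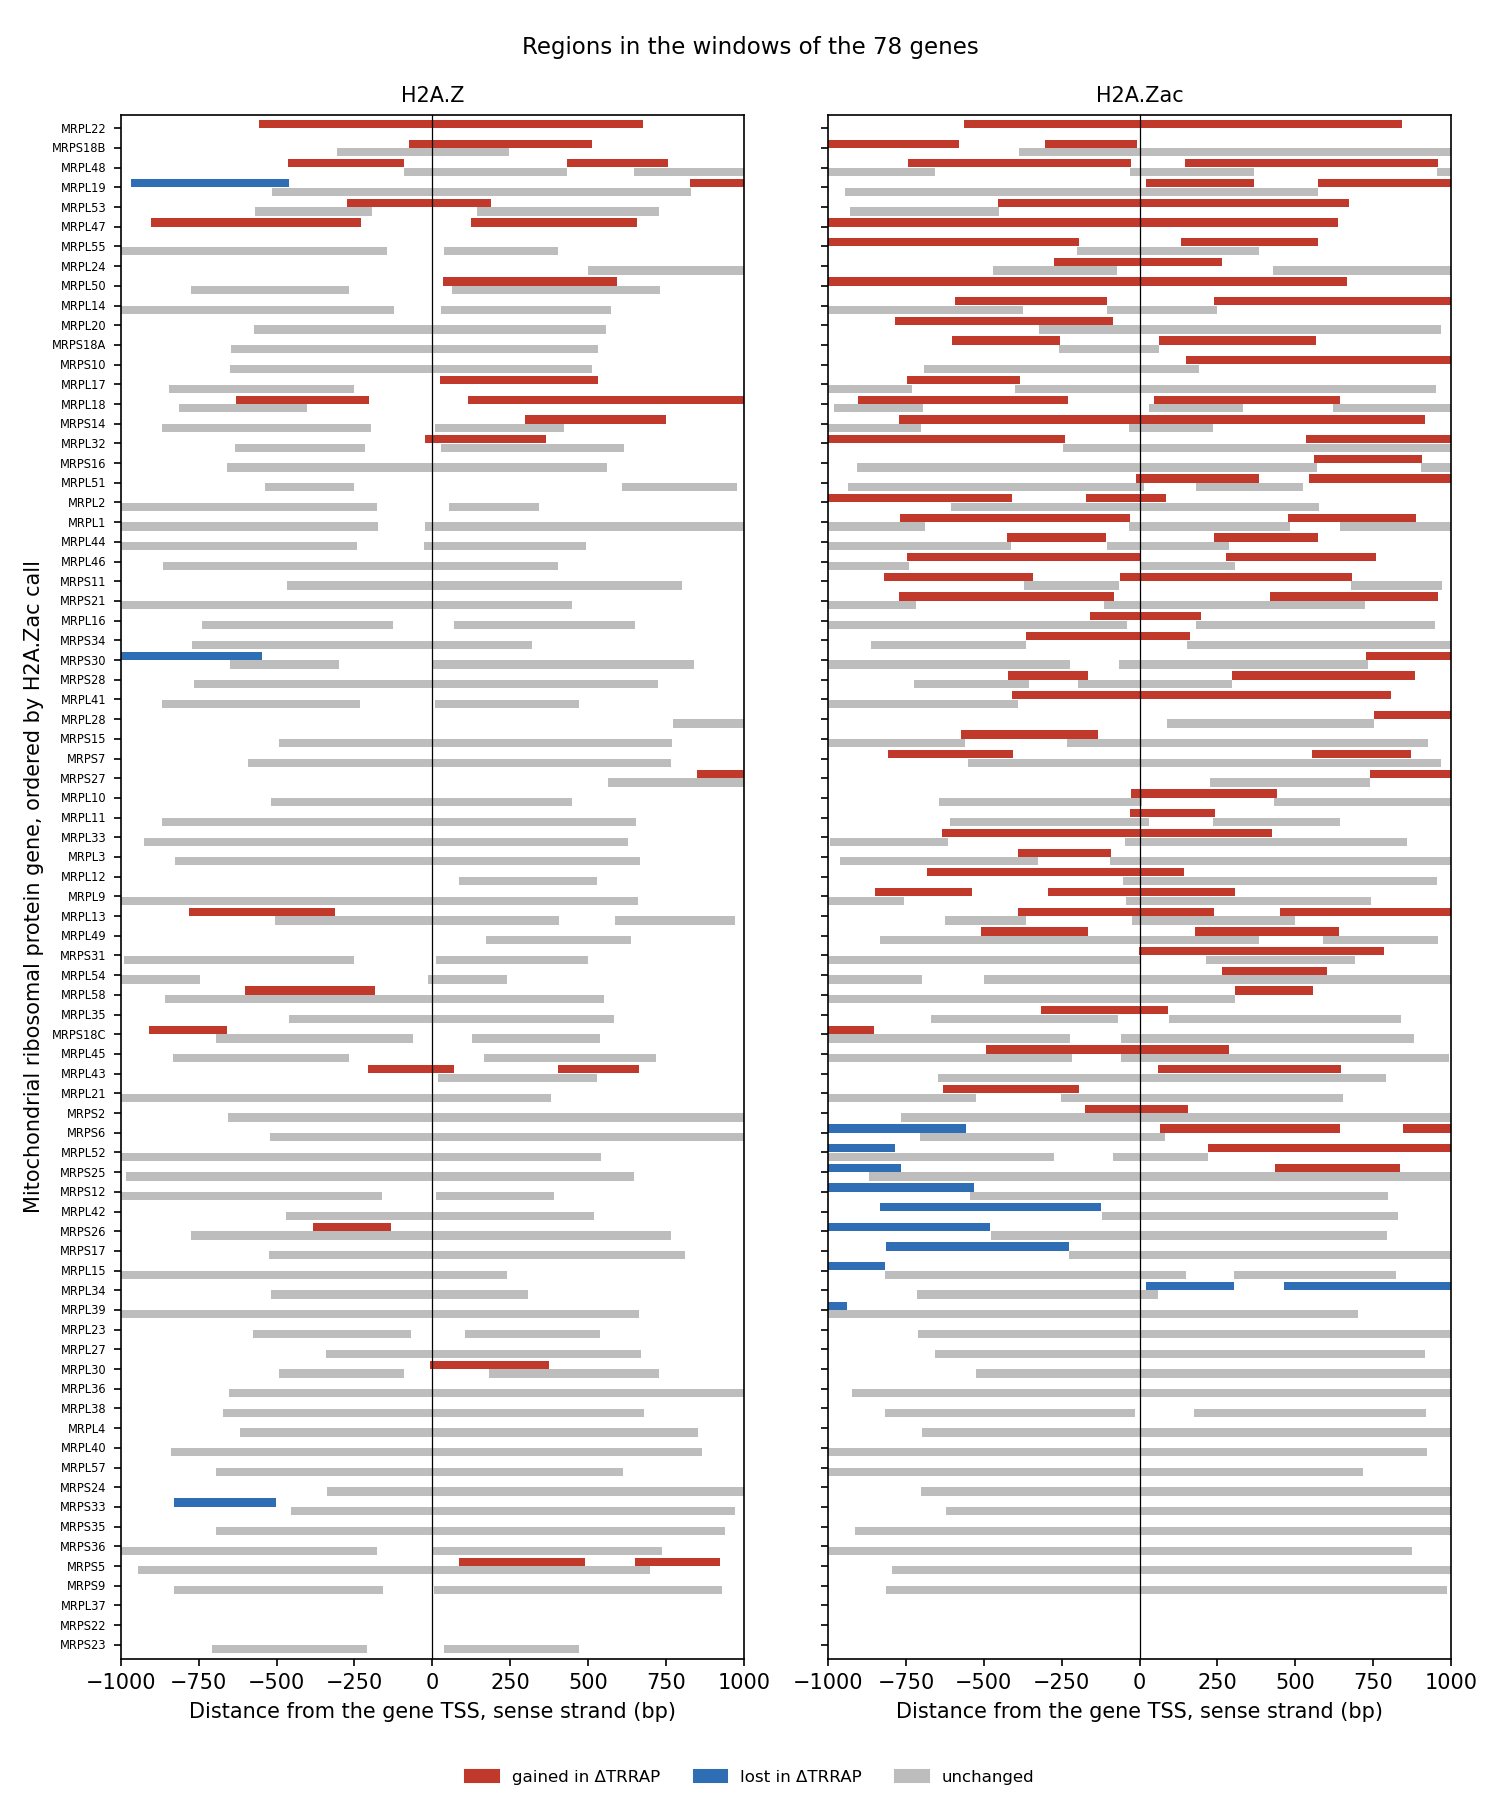
Regions of H2A.Z (left) and H2A.Zac (right) in the window of each of the 78 genes, one row per gene ordered by H2A.Zac call and likelihood ratio, by distance from the TSS in bp on the sense strand, with changed regions drawn above unchanged ones and cut at the window edges. Red gained stretches lie on both sides of the TSS in the upper rows, blue lost stretches lie mostly upstream, and most rows also hold gray unchanged regions.

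The 3 genes MRPS18A, MRPS18B and MRPS18C are paralogs, of which the first encodes a large subunit protein and the others small subunit proteins. All 3 had gained H2A.Zac, with highest LRs of 8.14 at MRPS18A, 18.6 at MRPS18B and 4.27 at MRPS18C. MRPS18A had unchanged H2A.Z, MRPS18B a gained region over the TSS and MRPS18C a gained region 910 to 659 bp upstream with an LR of 4.62. The position of the gained H2A.Zac also differed, on both sides of the TSS at MRPS18A, upstream at MRPS18B, and reaching only 854 bp upstream at MRPS18C. MRPL46 and MRPS11, the one pair of members with overlapping windows, share the same 2 gained H2A.Zac regions with LRs of 6.18 (chr15:88466632-88467111) and 5.31 (chr15:88467389-88468137), which therefore count for both genes although they are 1 promoter.

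By subunit, H2A.Zac was gained at 37 of the 50 large subunit genes with a region (74.0%; 60.4 to 84.1%) and at 14 of the 25 small subunit genes with one (56.0%; 37.1 to 73.3%). By origin, it was gained at 34 of 47 genes with a bacterial homologue (72.3%; 58.2 to 83.1%) and at 16 of 27 mitochondria-specific genes (59.3%; 40.7 to 75.5%), with MRPL55 left unassigned. Subunit was taken from the symbol, except that MRPS18A and MRPS30 were counted as large. Origin was taken from the number in the symbol, with a few genes assigned by name. Neither was checked gene by gene. In both splits the intervals overlapped, and those of the small subunit and of the mitochondria-specific genes include the 48.9% of all genes with a region. For H2A.Z the gained shares were 24.0% in the large and 23.1% in the small subunit, near the 21% of all genes with a region.

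Unchanged H2A.Z flanked the TSS, in the members as in other genes. In bins of 50 bp, it covered on average 83.9% of the members with an H2A.Z region at 350 to 301 bp upstream, 58.3% in the last bin before the TSS and 88.9% at 200 to 249 bp downstream. The general values in the same bins were 67.4%, 57.9% and 79.9%. H2A.Zac gained regions covered the most members at 300 to 251 bp upstream (40.4%, against 23.7% of all genes with a region) and at 550 to 599 bp downstream (38.3%). In the general profile the downstream side was the higher one, with 31.5% at 300 to 349 bp. Counting centers of regions, 17 of the 54 members had gained H2A.Zac upstream only (31.5%, against 26.8% of all genes with a gained region), 21 downstream only (38.9%, against 54.0%) and 16 on both sides (29.6%, against 19.2%). At the TSS base itself, 23 of the 71 members with an H2A.Zac region there were gained (32.4%), against 28.2% of such protein-coding genes. Of the total length covered by H2A.Zac regions in the windows, gained regions took 33.5% in the members and 28.7% in all genes with a region, and lost regions took 3.31% and 10.9%.

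**Figure D4:**
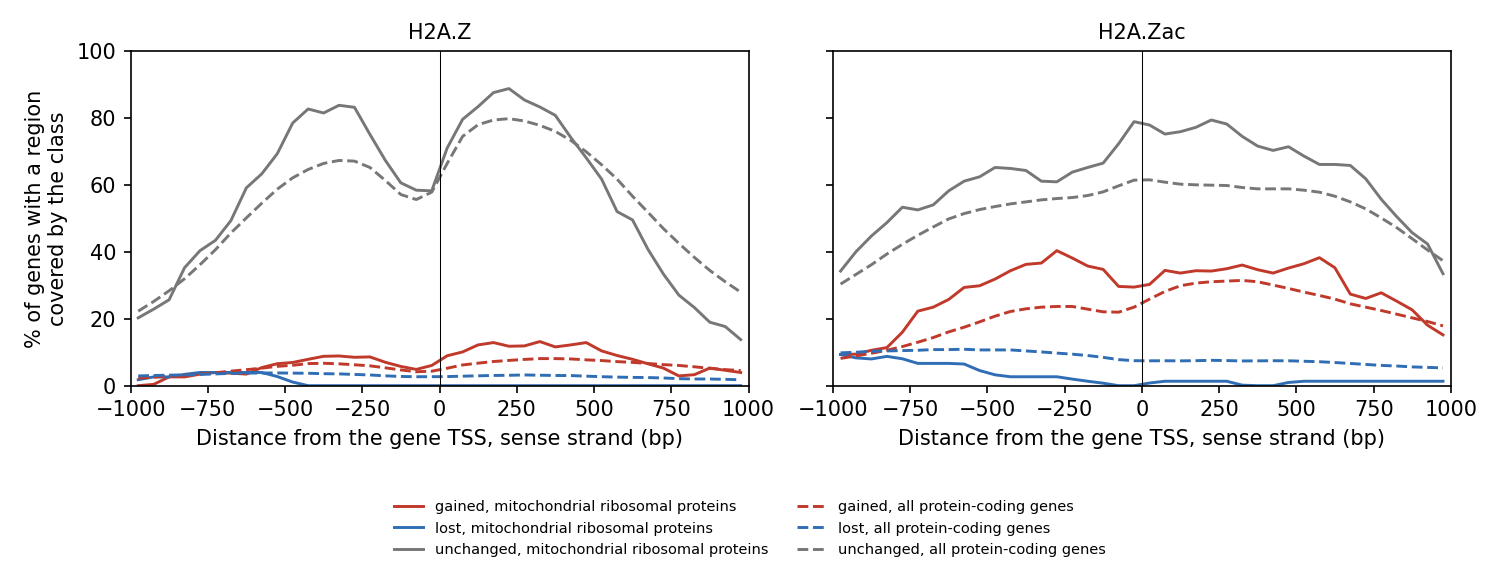
Share of genes with a region of the mark that is covered by gained, lost or unchanged regions (y axis, percent, mean over 50-bp bins) against the distance from the TSS in bp, for mitochondrial ribosomal protein genes (solid) and all protein-coding genes (dashed). Unchanged H2A.Z dips at the TSS, and gained H2A.Zac in the members reaches 40.4% at 300 to 251 bp upstream, where it covers 23.7% of all genes.

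Many of the TSSs have a neighbor on the opposite strand. An opposite-strand protein-coding TSS lay within 1 kb of 27 of the 78 TSSs (34.6%), and of 13.4% of all protein-coding TSSs. This counts divergent pairs and also genes that overlap. The partners of MRPL9 and MRPS18B, for example, start 597 and 772 bp inside the member. MRPL11 and MRPS22 count by a gene TSS far from their canonical start. H2A.Zac was gained at 20 of the 26 members with an opposite-strand TSS and a region (76.9%; 57.9 to 89.0%), and the share was 66.7% over all such genes. Among genes with no other protein-coding TSS within 1 kb, it was 30 of 46 members (65.2%; 50.8 to 77.3%) and 44.1% in general. H2A.Z was gained at 9 of the 26 members with an opposite-strand TSS and a region (34.6%; 19.4 to 53.8%), against 27.0% in general. With no other TSS it was 9 of 47 (19.1%; 10.4 to 32.5%), against 19.4%. Lost H2A.Z was at 0 of the 26 (0 to 12.9%), against 4.25%, and at 2 of the 47 (4.26%; 1.17 to 14.2%), against 12.1%. These H2A.Z intervals all included the general shares. Some of the partners belong to other lists described below or are well known. MRPL47 and MRPL36 are paired with the complex I genes NDUFB5 and NDUFS6, MRPL43 with the mitochondrial DNA helicase gene TWNK, MRPL49 with the cytosolic ribosomal protein gene FAU, MRPL32 with the proteasome gene PSMA2 and MRPL18 with the chaperonin gene TCP1. The call of a paired promoter cannot be assigned to one of the 2 genes. At NDUFB5 the highest LRs were those of MRPL47, 10.1 for H2A.Z and 9.20 for H2A.Zac, while NDUFS6 and MRPL36 were both unchanged in the 2 marks.

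The 5 other mitoribosome proteins that carry different names were split. AURKAIP1 (H2A.Z LR 5.97, H2A.Zac LR 6.01), CHCHD1 (3.42 and 9.06) and PTCD3 (6.23 and 5.53) had both marks gained, and DAP3 had both unchanged. GADD45GIP1 had unchanged H2A.Z and a lost H2A.Zac region with an LR of 23.3, above any region of the 78 genes. Factors of mitochondrial translation and mitoribosome assembly had gained H2A.Zac at 13 of 28 genes with a region (46.4%; 29.5 to 64.2%), and mitochondrial aminoacyl-tRNA synthetases at 5 of 17 (29.4%; 13.3 to 53.1%), with another 5 lost, including SARS2 (also 29.4%, with an interval that includes the 20.2% of all genes with a region). The first was near the 48.9% of all genes with a region and the second below it, with an interval that includes it. Both were below the 68.0% of the mitochondrial ribosomal proteins, whose interval overlapped that of the translation and assembly factors but not that of the synthetases, and the differences were not tested. In the mitochondrial transcription list, 4 of 7 genes had gained H2A.Zac (57.1%, against 48.9% of all genes with a region). H2A.Z was gained at 5 of the 7 (71.4%; 35.9 to 91.8%), against 21% of all genes with a region. TFB1M had both marks gained, with the highest gained LRs of the list (7.33 for H2A.Z and 7.88 for H2A.Zac). TFAM, which packages mitochondrial DNA, had both marks gained (LRs 5.04 and 6.43), as did the transcription factor TFB2M (6.45 and 6.33), whereas POLRMT, the mitochondrial RNA polymerase, had gained H2A.Z (3.49) and unchanged H2A.Zac. MTERF1 had gained H2A.Z (4.94) and lost H2A.Zac with an LR of 11.5, above the gains in this list, and MTERF2 had H2A.Zac regions of both directions (4.71 gained and 5.59 lost). Complex I subunits (26 of 35, 74.3%; 57.9 to 85.8%), cytosolic ribosomal proteins (56 of 78, 71.8%; 61.0 to 80.6%) and proteasome subunits (27 of 42, 64.3%; 49.2 to 77.0%) gained H2A.Zac at shares close to that of the mitochondrial ribosomal proteins. These lists of genes share promoters in part, as the pairs above show. The frequent call of gained H2A.Zac was thus also found in other groups of housekeeping genes.

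MRPL37 and MRPS22 had no region of either mark in the window, and both have a canonical transcript that starts elsewhere. At the canonical start of MRPL37, 16.1 kb away, 1 region of each mark was present and unchanged. At that of MRPS22, 338 kb away, H2A.Z (highest LR 5.97) and H2A.Zac (8.73) were both gained. MRPL11, whose canonical start is 27.9 kb from the gene TSS, had unchanged H2A.Z and gained H2A.Zac at the gene TSS, and lost H2A.Z (5.81) and gained H2A.Zac (4.10) at the canonical start. MRPS23 held unchanged H2A.Z regions and no H2A.Zac region.

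Motif letters were searched on both strands in the RefSeq promoter, 250 bases before to 50 after the start, which was at hand for 69 members and 15345 protein-coding genes. The letters AAGATGGC, the core of a YY1 site, were in 20 of the 69 (29.0%; 19.6 to 40.6%) and in 3.97% of all promoters. The ETS letters CCGGAAGT were in 15.9% (9.14 to 26.3%) against 6.32%, and the NRF1 core CGCATGCG in 4.35% (1.49 to 12.0%) against 2.85%. The GC box GGGCGG was in 60.9% against 59.2% and CCAAT in 29.0% against 36.6%. A match describes letters and not a bound factor. YY1 letters were about as frequent in members with gained H2A.Zac (14 of 45, 31.1%) as in those with lost or unchanged H2A.Zac (5 of 18, 27.8%).

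**Figure D5:**
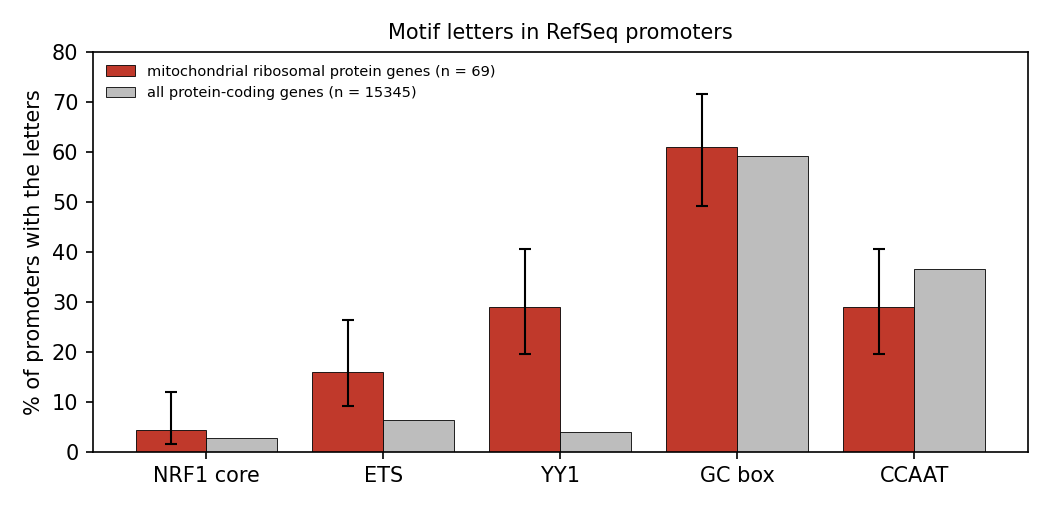
Share of promoters (y axis, percent) that contain the letters of each motif on either strand, for 69 mitochondrial ribosomal protein genes (red, with Wilson 95% confidence intervals) and 15345 protein-coding genes (gray). The YY1 letters are in 29.0% of the former and 3.97% of the latter, and the GC box is in 60.9% and 59.2%.

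Most of the YY1 letters lay on the sense strand just after the start. Of the 21 matches, 17 were on the sense strand (81.0%) and 14 began within 30 bases downstream of the RefSeq start (66.7%), and of the 635 matches in all promoters 72.9% and 57.3% did. In 12 of the 21 the ATG inside the letters is an annotated start codon of the gene, so the match can also be read as the start of the coding sequence. Stretches of up to 30 bases on the sense strand around the match, in capitals, are shown for 8 genes from across the calls. In order they are the 2 members with the strongest H2A.Zac gains (MRPL22, chr5:154941097-154941122, and MRPS18B, chr6:30617852-30617881), 3 other gained members (MRPS18A, chr6:43687764-43687793, MRPL50, chr9:101398577-101398606, and MRPS30, chr5:44808949-44808978), 1 lost member (MRPL42, chr12:93467511-93467540) and 2 unchanged members (MRPL38, chr17:75904860-75904889, and MRPS24, chr7:43869480-43869509). The same letters stand at promoters that differ in their call.
MRPL22: cgggagggcgaAAGATGGCggcggca
MRPS18B: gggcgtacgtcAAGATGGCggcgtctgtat
MRPS18A: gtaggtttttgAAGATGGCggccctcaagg
MRPL50: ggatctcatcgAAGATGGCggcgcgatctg
MRPS30: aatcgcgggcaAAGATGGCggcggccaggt
MRPL42: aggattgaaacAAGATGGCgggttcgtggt
MRPL38: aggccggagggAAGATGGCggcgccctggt
MRPS24: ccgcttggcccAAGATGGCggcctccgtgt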

How the data were processed

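H2A.Z, H2A.Zac and input ChIP-seq libraries were made from the WT and ΔTRRAP K562 lines in 2 biological replicates. According to the study's methods, the authors aligned reads to hg38 with Bowtie2 (2.4.5), merged replicates, compared the lines with MACS2 (2.2.7.1) bdgdiff, supplied with the effective sequencing depths that MACS2 gave (cutoff 3 per the file names, minimum length 250, maximum gap 150) and kept regions with at least 25% of their length in peaks of IDR at most 0.05. The submitters' processing notes also list bedtools (2.30.0) and deepTools (3.5.1). The deposited score of each region is the authors' log10 likelihood ratio. It comes from pooled replicates, so no spread between replicates, depth or leave-one-out value exists here, and counts of regions are not counts of peaks.

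Members, all other lists, motifs and rules were chosen with earlier results of these data known. Regions were overlapped with the window of 1 kb to each side of the gene TSS (GENCODE release 44, later than that of the study), where at least 1 base was shared. Genes named are, per mark and direction, the 5 with the highest likelihood ratio, up to 10 with both marks changed the same way, those with no region or with opposite regions, the MRPS18 paralogs, MRPS30 and members sharing a window. MRPL30, MRPL34, MRPL11, MRPL58 and the other members outside this rule, the promoters printed, the genes of other lists and the YY1 stretches named were chosen after their values were seen. Shares carry Wilson 95% confidence intervals (scipy 1.17.1). The overlaps of 40066 windows and marks differed from those of bedtools 2.31.1 in 0 cases. RefSeq promoters (GRCh38.p14) matched 69 of 78 members by symbol, 64 of them with a start within 1 kb of the gene TSS. Python 3.11.15, numpy 2.4.6 and matplotlib 3.10.9 were used. Expression, input libraries and signal tracks were not analysed here.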

Additional observations from a re-analysis of the deposited data

How the results depend on the processing

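Of 84 values under 14 alternatives, 54 stayed within 1.5 times the value reported and 30 moved further. Leaving out members near another protein-coding TSS keeps 48 of 78 members. The shares of gained H2A.Zac (62.5%, against 65.4%) and of gained H2A.Zac over unchanged H2A.Z (43.8%, against 43.6%) then hardly moved. Those of gained H2A.Z (18.8%, against 23.1%) and of both marks gained (14.6%, against 19.2%) fell. Stricter rules leave fewer changed regions, and causes beyond that were not tested. Under the LR, base pair and TSS base rules the gained shares of all genes also fell. Members with gained H2A.Z (18) numbered 9 with an LR of at least 5, 1 with at least 10, 5 by most base pairs, 6 at the TSS base, 9 without members near another protein-coding TSS and 6 with regions of at least 500 bp. Lost H2A.Z (2) fell to 1 with a 500-bp window and to 0 with an LR of at least 5 or 10, by most base pairs and at the TSS base. Gained H2A.Zac (51) numbered 4 with an LR of at least 10, 15 by most base pairs, 23 at the TSS base and 30 without members near another TSS. Lost H2A.Zac (7) numbered 4 with a 500-bp window, 0 with an LR of at least 10, 1 by most base pairs, 0 at the TSS base and 4 without chromosomes 19 and 20, which hold MRPS12, MRPL34 and MRPS26. Gained H2A.Zac over unchanged H2A.Z (34) numbered 3 with an LR of at least 10, 12 by most base pairs, 10 at the TSS base and 21 without members near another TSS. Both marks gained (15) numbered 6 with an LR of at least 5, 0 with at least 10, 3 by most base pairs, 2 at the TSS base, 7 without members near another TSS and 5 with regions of at least 500 bp. Leaving out members whose canonical TSS is over 1 kb away, an alternative chosen after seeing the data, moved no value past 1.5 times. No paired analysis was possible because the lists come from merged replicates and hold no value per replicate. For the same reason no replicate could be left out, and without depth the precision of a single region is unknown.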
